A study of Mus musculus with 4 samples.

Results

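Nppa, Myl7, Myl4, Tnnt2, Actc1, Myh6 and Sln are genes of atrial heart muscle whose transcripts were counted in single-cell suspensions of mouse aorta. These 7 genes were taken by symbol from the 31053 genes of the count matrices. They had been chosen because their counts were uneven between these same libraries, so their levels are a description and no test was made of them.

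Aortic arches with their main branches and the tissue around them were perfused, pooled by group, digested with enzymes, sorted for viable cells that excluded the dye DAPI, and profiled with a 3′ droplet kit that tags each captured transcript with a unique molecular identifier (UMI). All mice were males that carried loxP-flanked alleles of Nfe2l2, the gene of the transcription factor Nrf2, and were 3 months old at the start. In the Nrf2Cdh5tKO mice a Cre recombinase driven by the Cdh5 promoter cut out the exon that Nrf2 needs to bind DNA, in cells of the endothelial lineage, which in Cdh5-driven lines can include blood cells. Nrf2flox/flox mice were the controls. Normocholesterolemic mice were injected with saline and ate a standard diet, and atherosclerotic mice were injected with an AAV8 vector and ate a high-fat diet for 21 weeks. Each of the 4 groups is 1 library, made from 4 pooled mice in each normocholesterolemic group and 3 in each atherosclerotic group. The libraries are called below the flox control, the tKO-labelled control, the flox atherosclerotic and the tKO-labelled atherosclerotic library. With 1 library per group, a difference between groups cannot be told apart from a difference between dissections or libraries.

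The heart atrium and ventricle share most of their contractile machinery but use different light chains and hormones. In the adult mouse Nppa (natriuretic peptide A, a secreted hormone), Myl7 and Myl4 (the atrial regulatory and essential myosin light chains) and Sln (sarcolipin, an inhibitor of the calcium pump of the sarcoplasmic reticulum) are mainly atrial. Myh6 (alpha myosin heavy chain, the motor protein), Tnnt2 (cardiac troponin T, which ties the calcium switch to the thin filament) and Actc1 (cardiac alpha actin) are found in both chambers. The great vessels join the heart at its base, and the walls of caval and pulmonary veins hold a sleeve of atrial-type muscle.

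The filtered matrices held 8512 barcodes in the flox control, 3460 in the tKO-labelled control, 1160 in the flox atherosclerotic and 2467 in the tKO-labelled atherosclerotic library, with 98754487, 43717402, 12276546 and 24184211 UMIs. A barcode was kept as a cell if it had 200 to 6000 detected genes and no more than 15% of its UMIs were mitochondrial, which left 7890, 2972, 1020 and 2266 cells with median depths of 12133, 14152.5, 10963 and 9200.5 UMIs. Between 2 and 10 barcode sequences were shared by any pair of libraries, and 30 occurred in more than 1 library. Levels below are UMIs per 1000000 UMIs of the same cells (CPM), and each UMI stands for 1 captured transcript, with no division by gene length. Intervals are 95% intervals of the counting error (exact Poisson for levels, exact binomial for shares and ratios), which do not cover the spread between mice. Nfe2l2 was at 176 CPM (137 to 224) in cells that met the endothelial marker gate of the flox control and at 388 (314 to 474) in those of the tKO-labelled control, and at 170 (114 to 244) and 316 (234 to 418) in the atherosclerotic pair. It was therefore not lower in the libraries labelled Nrf2Cdh5tKO, and since a 3′ count may fall outside the deleted part of the gene, it does not check the label.

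The 7 genes did not follow one pattern across libraries. Nppa, Sln, Myh6 and most of Myl7 were counted in the tKO-labelled control and hardly anywhere else. Tnnt2 and Actc1 differed by less than 2-fold between the flox and the tKO-labelled control over all kept cells. In the latter, 45.9% of the kept Tnnt2 UMIs and 40.9% of those of Actc1 lay in a cardiac muscle gate described below. Outside this gate Tnnt2 was over 2-fold lower in the tKO-labelled than in the flox control. Myl4 was counted in all 4 libraries, at a low level except in the tKO-labelled control. In kept cells Nppa gave 3 UMIs (0.0315 CPM) in the flox control, 5773 UMIs (141 CPM, 138 to 145) in the tKO-labelled control and none in either atherosclerotic library. No UMI allows a level of up to 0.255 CPM in the flox and 0.133 CPM in the tKO-labelled atherosclerotic library, taken as the level of 3 UMIs. The tKO-labelled control thus stood alone for the hormone gene, with a UMI of Nppa in 8.34% of its cells.

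Sln followed Nppa, with 0.0105 CPM (1 UMI) in the flox control, 24.8 CPM (1013 UMIs) in the tKO-labelled control, none in the flox atherosclerotic and 0.267 CPM (6 UMIs) in the tKO-labelled atherosclerotic library, all in 1 smooth muscle cell. Myh6 was at 0.115, 8.34, 0 and 0.0444 CPM in the same order, from 11, 341, 0 and 1 UMIs. Myl7 was at 0.315, 38.0, 0 and 1.20 CPM, from 30, 1554, 0 and 27 UMIs. For these 3 genes, too, the tKO-labelled control was the high library and the flox atherosclerotic library held no UMI.

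Myl4 was counted at 5.36 CPM in the flox control, 46.0 in the tKO-labelled control, 7.30 in the flox atherosclerotic and 4.36 in the tKO-labelled atherosclerotic library. Tnnt2 was at 54.8, 37.4, 8.41 and 7.51 CPM, and Actc1 at 39.8, 38.4, 0.510 and 2.09 CPM. Both thin-filament genes were thus high in the normocholesterolemic pair and low in the atherosclerotic pair. Summed over the 7 genes, the levels were 100.467 CPM (98.5 to 102), 334 (328 to 340), 16.2 (14.0 to 18.7) and 15.5 (13.9 to 17.2).

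**Figure D1:**
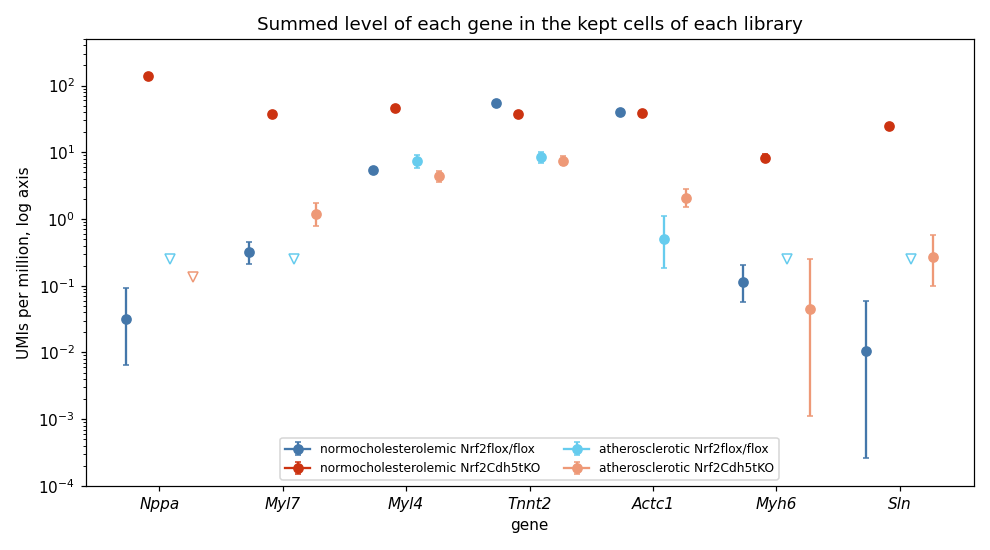
Level of each of the 7 genes in kept cells of the 4 libraries, in CPM on a log axis; bars are 95% counting intervals and open triangles mark the level of 3 UMIs where no UMI was found. Nppa reaches 141 in the tKO-labelled control and 0.0315 in the flox control, while Actc1 is at 38.4 and 39.8 in the same pair.

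The genes lie apart in the genome, on GRCm38 coordinates of the GENCODE annotation used by the count files. Nppa (ENSMUSG00000041616) spans chr4:148000722-148002079 on the forward strand, Tnnt2 (ENSMUSG00000026414) chr1:135836354-135852260 forward, Sln (ENSMUSG00000042045) chr9:53850164-53854560 forward, and Myl4 (ENSMUSG00000061086) chr11:104550663-104595753 forward. Myl7 (ENSMUSG00000020469) spans chr11:5896637-5898782 on the reverse strand, Actc1 (ENSMUSG00000068614) chr2:114047282-114053548 reverse, and Myh6 (ENSMUSG00000040752) chr14:54941921-54966927 reverse. Myh6 lies beside the near-identical Myh7, so the split of reads between them is uncertain. Nppa and Myh6 overlap annotated antisense genes (Gm13054 and Gm49130), and Myl4 overlaps Gm11665 on the opposite strand.

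Nppa, Myl7 and Tnnt2 stand for the 3 patterns described below, in barcodes of a cardiac muscle gate, mesothelial cells and smooth muscle cells. The stretches just upstream of these 3 genes are shown for this reason. Each is the 250 bases before the RefSeq start site on GRCm38.p6, printed along the strand of the gene, with matches to the motifs searched in capitals. All motifs were searched on both strands. The first, at which transcription is positioned in many strongly regulated genes, was TATAAA. The MCAT element, bound by TEAD factors, was searched as CATTCC. The GATA site, bound by factors such as Gata4, was searched only as AGATAA. The variant TGATAA, which the windows of Nppa and Myl7 hold, was not searched or counted. The CArG box, bound by serum response factor, was the last.
Nppa, chr4:148000472-148000721, forward strand: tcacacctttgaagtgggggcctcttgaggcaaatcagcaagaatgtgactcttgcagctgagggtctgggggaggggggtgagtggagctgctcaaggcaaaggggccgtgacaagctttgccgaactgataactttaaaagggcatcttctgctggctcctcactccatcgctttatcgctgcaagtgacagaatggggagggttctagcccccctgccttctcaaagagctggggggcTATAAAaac
Myl7, chr11:5898783-5899032, reverse strand: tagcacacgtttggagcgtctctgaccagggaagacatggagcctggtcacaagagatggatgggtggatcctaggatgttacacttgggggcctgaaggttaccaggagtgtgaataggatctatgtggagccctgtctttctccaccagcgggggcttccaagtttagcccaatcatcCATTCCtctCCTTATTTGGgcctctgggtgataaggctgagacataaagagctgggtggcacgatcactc
Tnnt2, chr1:135836084-135836333, forward strand: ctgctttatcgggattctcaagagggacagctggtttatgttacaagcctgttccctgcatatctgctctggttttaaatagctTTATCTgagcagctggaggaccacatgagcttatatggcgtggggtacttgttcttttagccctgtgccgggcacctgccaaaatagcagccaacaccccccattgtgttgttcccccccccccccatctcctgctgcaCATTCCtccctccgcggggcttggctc
The window of Nppa held TATAAA (the TATA box), 9 to 4 bases before the start. That of Myl7 held an MCAT element and a CArG box, and that of Tnnt2 a GATA site on the other strand and an MCAT element. No matches overlapped. The window of another start site of Tnnt2, not printed here, held no match. The window of Actc1 held a CArG box, that of Myh6 an MCAT element on the other strand, and that of Myl4 none of these motifs. Sln had no entry. Among 32841 mouse promoter windows of the same length, 12.4% held the TATA box, 12.6% the MCAT element, 9.99% the GATA site and 1.47% the CArG box, and the matches are given as a description.

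Most of the UMIs of the tKO-labelled control came from very few barcodes. Its single richest barcode held 30.9% of all UMIs of the 7 genes and its richest 10 held 66.3%, and 2 barcodes were enough to reach 50%. In the flox control the richest 10 barcodes held 14.2% and 65 barcodes were needed to reach 50%. The UMIs of the tKO-labelled control were therefore more concentrated in few barcodes than those of the flox control. Low counts were still widespread in it, with a UMI of the 7 genes in 899 of 3460 barcodes, against 1176 of 8512 in the flox control. In the atherosclerotic libraries, with 191 and 363 UMIs of the 7 genes in all, the richest 10 barcodes held 79.6% and 56.5%.

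**Figure D2:**
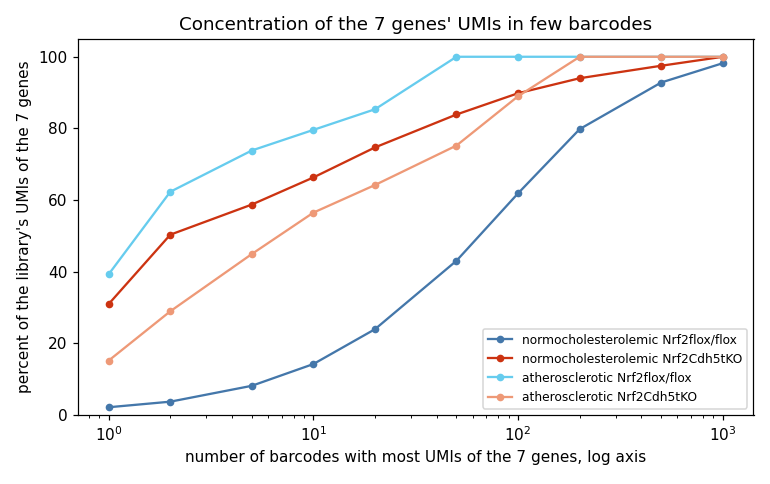
Cumulative share of the UMIs of the 7 genes, in percent, against the number of richest barcodes on a log axis, with all barcodes counted, one line per library and points at the ranks computed. The tKO-labelled control reaches 66.3% and the flox control 14.2% at 10 barcodes.

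To find heart muscle cells without using the 7 genes, a gate asked for at least 5 of 10 other cardiac genes: Tnni3, Mybpc3, Ryr2, Actn2, Myl3, Ttn, Csrp3, Cox6a2, Myom1 and Smpx, which encode sarcomere proteins, a calcium release channel and a heart-type subunit of cytochrome oxidase. Of all 15599 barcodes, 15 in the tKO-labelled control and 1 in the flox control passed, and none in either atherosclerotic library. None of the 16 barcode sequences occurred in another library. The 15 barcodes had 713 to 30010 UMIs (median 6501), and 10 of them passed the cell filters; the other 5 were over the mitochondrial limit.

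In these 15 barcodes the 7 genes made up between 0.226% and 16.4% of all UMIs, with a median of 4.90%. Nppa gave 5088 UMIs (35532 CPM) in 14 of the barcodes, with 0 in the lowest, 44 in the median and 3649 in the highest barcode. Myl4 gave 1544 UMIs (10783 CPM; 3, 39 and 656), Myl7 1101 (7689 CPM; 1, 31 and 384) and Sln 918 (6411 CPM; 1, 17 and 426). The atrial hormone was the highest of the 7 genes in 9 of the 15 barcodes, and 11 barcodes held UMIs of all 7. Tnnt2 gave 780 UMIs (5447 CPM; 6, 22 and 377), Actc1 684 (4777 CPM; 0, 13 and 320) and Myh6 271 (1893 CPM; 0, 5 and 127).

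The deepest barcode, with 30010 UMIs and all 10 markers, held 3649 UMIs of Nppa, 367 of Myl4, 291 of Myl7, 214 of Sln, 193 of Actc1, 127 of Myh6 and 83 of Tnnt2. It alone carried 54.9% of the Nppa UMIs of its library. The second deepest, with 27413 UMIs, held 833 of Nppa, 656 of Myl4, 426 of Sln, 384 of Myl7, 377 of Tnnt2, 320 of Actc1 and 85 of Myh6. Proportions among the genes thus differed between the richest pair: Tnnt2 was well below Nppa in the first and nearer to it in the second. Without the deepest barcode, Nppa made up 26.3% (25.2 to 27.5) of the 7-gene sum in the gate, against 49.0% with it.

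The gate held 76.5% of the Nppa UMIs of the library, 74.5% of Sln, 69.2% of Myl4, 66.4% of Myh6 and 58.8% of Myl7, but 43.5% of Tnnt2 and 39.7% of Actc1. Most of the UMIs of the first 5 genes thus lay in 15 barcodes, while most of those of Tnnt2 and Actc1 lay elsewhere. At the threshold, 4 barcodes with exactly 5 markers held 39 to 211 UMIs of the 7 genes (median 112), and 12 barcodes with 4 markers, just outside the gate, held 9 to 255 (median 43). Other cell type gates were met by 7 of the 15 barcodes: 3 met that of mononuclear phagocytes, 2 the endothelial, 1 the fibroblast gate and 1 several gates. A doublet caller, run on kept cells only, marked 0 of the 10 kept barcodes of the gate. The part of doublets and fused droplets in the overlap of gates was not tested further.

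**Figure D3:**
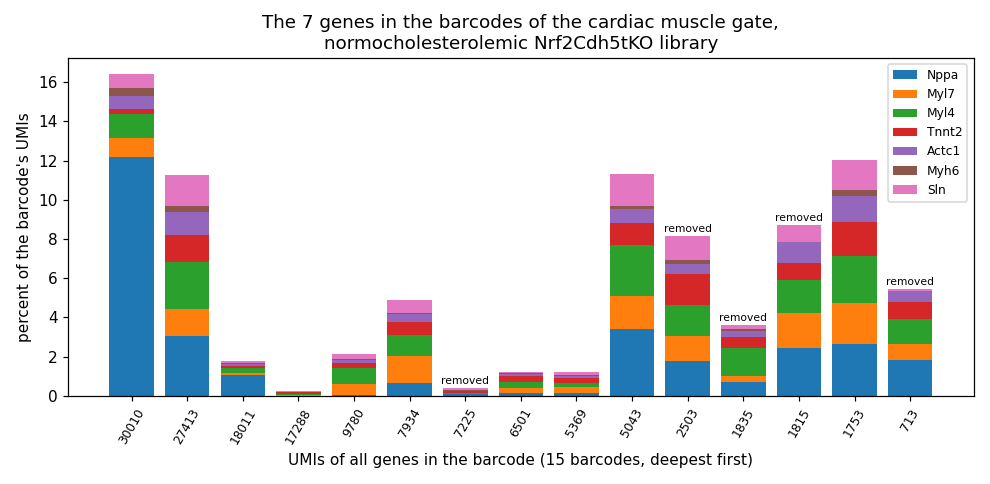
Stacked bars give the 7 genes in percent of a barcode's UMIs for the 15 barcodes of the tKO-labelled control that passed the cardiac muscle gate, ordered and labelled by total UMIs, with those over the mitochondrial limit marked as removed. Together the genes reach 16.4% in the deepest barcode and 0.226% in the lowest, and Nppa is the highest of the 7 in 9 barcodes.

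Heart genes in the 15 barcodes were also read from lists of known markers, some of which the gate itself had used, so that their presence there was in large part fixed by the choice of barcodes. All 19 genes of cardiac contraction and energy supply had a UMI there, and 18 of them were over 10 times their level outside the gate of the same library; over all 31053 genes, 10142 had a UMI and 555 were over 10 times. Of the 19, 11 had no part in the gate, and all 11 had a UMI and were over 10 times. The 5 list genes with the highest levels were the gate markers Tnni3 (cardiac troponin I, 4225 CPM in 15 barcodes) and Cox6a2 (2263 CPM in 12), and 3 that the gate did not use: Mb (myoglobin, which stores oxygen, 3345 CPM in 15), Fabp3 (a fatty acid carrier, 1844 CPM in 14) and Tnnc1 (troponin C, 1711 CPM in 14). Of 12 genes of calcium handling and rhythm 9 had a UMI and 7 were over 10 times, or 8 and 6 of 11 without the gate marker Ryr2; Casq1, Kcna5 and Hcn4 were at 0. All 6 cardiac transcription factors were seen, 2 of them over 10 times.

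Chamber markers other than the 7 genes were read the same way. Of 10 atrial genes 8 had a UMI and 6 were over 10 times, with Bmp10 and Kcna5 at 0. Of 7 ventricular genes 5 had a UMI and 4 were over 10 times, or 4 and 3 of 6 without the gate marker Myl3, while Myl2, the ventricular regulatory light chain, was at 0 and Myh7 had 2 UMIs. None of 11 skeletal muscle genes had a UMI. Of 5 brown fat genes 3 had a UMI and 2 were over 10 times, Cox7a1 and Ppargc1a, with Ucp1 and Elovl3 at 0. Cox7a1 is also in the list of cardiac contraction and energy supply. Of 4 haemoglobin genes 1 was seen, with 1 UMI.

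The single gated barcode of the flox control was of another kind. It had 2457 UMIs, 81.8% of them mitochondrial, and was removed by the filters; it held 6 UMIs of Myh6, 4 of Tnnt2, 1 of Actc1 and none of Nppa, Myl7, Myl4 or Sln. It also held 3 UMIs of Myl3 and 2 of Myl2, both of which are ventricular light chains. None of the 4 mainly atrial transcripts was seen in it. In the tKO-labelled control Nppa was seen in 14 and Myl7, Myl4 and Sln in all 15 gated barcodes, some with few UMIs. With 11 UMIs of the 7 genes, the flox barcode held too few to name its chamber.

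Outside the gate, low counts of the 7 genes were found in many other cells of the tKO-labelled control. The kept cells outside it held the 7 genes at 92.4 CPM (89.5 to 95.4), with 22.7 for Actc1, 20.3 for Tnnt2, 19.8 for Nppa, 13.0 for Myl7, 10.9 for Myl4, 3.73 for Sln and 1.99 for Myh6. Cell types were assigned by gates of at least 3 of 5 marker genes. In its 1461 fibroblasts Nppa was at 10.1 CPM (8.15% of cells), Myl4 at 10.5, Tnnt2 at 8.75, Myl7 at 4.60, Sln at 3.57, Actc1 at 2.12 and Myh6 at 2.07 CPM. In the much more numerous fibroblasts of the flox control, 1 UMI of Nppa and 1 of Sln were counted, and none of Myl7 or Myh6. The same cells held 285 UMIs of Tnnt2, 154 of Myl4 and 55 of Actc1. Tnnt2 and Actc1 did not differ by over 2-fold between the fibroblasts of both controls. The other 5 genes were higher in the tKO-labelled control, as were 2.66% of all genes.

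In the 313 mononuclear phagocytes of the tKO-labelled control, cells that engulf debris, all 7 genes were seen. Nppa was at 174 CPM in 18.5% of the cells, Myl7 at 25.9, Myl4 at 24.0, Tnnt2 at 19.0, Actc1 at 15.5, Myh6 at 9.68 and Sln at 8.90 CPM. One cell held 316 of the 449 Nppa UMIs, and without it the level was 51.7 CPM. That cell had 11952 UMIs and 3 of the 10 cardiac markers, and held 20 UMIs of Actc1, 18 of Myl4, 13 of Myl7, 6 of Sln, 4 of Tnnt2 and 2 of Myh6. In the 631 phagocytes of the flox control a single UMI of Nppa was counted (0.138 CPM, 0.158% of cells), at a median depth of 10316 UMIs against 7311 in the tKO-labelled control. The 96 and 264 phagocytes of the atherosclerotic libraries held none.

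Levels of Nppa in the tKO-labelled control differed between cell types. Phagocytes without the richest cell (51.7 CPM) and cells that met no gate (70.9 CPM, 49.7 to 98.2) were highest, endothelial cells were at 24.3 CPM from 6 UMIs, fibroblasts at 10.1, T cells or thymocytes at 4.05 (2.09 to 7.07) and smooth muscle cells at 3.29 CPM. The cells that met no gate were shallow, with a median of 960 UMIs, against 16674 in fibroblasts. With every cell thinned to 5000 UMIs, 14.0% of 229 phagocytes, 3.32% of 1384 fibroblasts, 2.07% of 193 T cells or thymocytes and 0.917% of 327 smooth muscle cells held a UMI of Nppa; at full depth the shares were 18.5%, 8.15%, 3.19% and 4.43%. Phagocytes were the highest of the 4 types by every measure, and T cells or thymocytes and smooth muscle cells did not differ beyond the counting intervals of their levels.

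Free RNA in the suspension gives low counts in cells that do not make a transcript. Genes of other types in the same library give a rough guide to its size. The genes used are themselves markers of the gates, and cells that met several gates were set apart. Their shares in other types may therefore be too low. Dcn, a matrix gene of fibroblasts, was in phagocytes at 1.14% and in T cells or thymocytes at 0.782% of its fibroblast level. Myh11, the smooth muscle myosin, was at 0.455% and 0.430% of its smooth muscle level, and C1qa, a complement gene of phagocytes, at 0.785% in T cells or thymocytes and at 0.552% in fibroblasts of its phagocyte level. Set against the 15 barcodes of the cardiac muscle gate, Nppa was at 0.489% in phagocytes and 0.0284% in fibroblasts. In T cells or thymocytes it was at 0.0114% and in smooth muscle cells at 0.00925%. Tnnt2 was at 0.161% in fibroblasts but at 1.54% in smooth muscle, and Actc1 at 2.94% in smooth muscle. The phagocyte value of Nppa was 0.146% without its richest cell. The cardiac muscle gate held 0.336% of the kept cells, against 49.2% for fibroblasts, 12.1% for smooth muscle and 10.5% for phagocytes. With sources of such different size, the shares of Nppa, Tnnt2 and Actc1 are not on one scale with those of Dcn, Myh11 and C1qa. How much of these counts is free RNA was not tested.

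The proportions among the 7 genes also differed between types. In phagocytes without the richest cell Nppa made up 39.6% (34.3 to 45.0) of the 7-gene UMIs, Myl7 16.1%, Tnnt2 13.4% and Myl4 13.1%; in fibroblasts Myl4 made up 25.1%, Nppa 24.2% and Myl7 11.1%. Barcodes removed by the filters outside the gate held 43.0% Nppa (40.6 to 45.3), 13.9% Myl4 and 13.7% Myl7. In smooth muscle, by contrast, Actc1 made up 58.4% (55.7 to 61.1), Tnnt2 34.9% (32.3 to 37.5) and Nppa 1.37%, and in mesothelial cells Myl7 made up 98.9%. Smooth muscle and mesothelial cells thus differed from the other types in their mixture, and the part of free RNA in any of them was not tested.

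Summed over shallow barcodes of the tKO-labelled control, the level of these transcripts was higher, with barcodes that the filters removed counted too. Outside the gate Nppa was at 424 CPM in barcodes under 1000 UMIs, 431 between 1000 and 5000, 27.3 between 5000 and 20000 and 6.55 at 20000 or more. The share of barcodes with a UMI of Nppa was about level over the same bins, at 11.4%, 8.68%, 8.18% and 9.68%. A few barcodes weighed on the levels. Of the 711 Nppa UMIs between 1000 and 5000, removed barcodes held 212, 101, 70 and 68. Between 5000 and 20000 the richest phagocyte held 316 of 630. Actc1 fell less steeply, with 68.5, 55.7, 27.3 and 16.2 CPM. In the flox control the sum of the 7 genes ran the other way, from 35.4 CPM in barcodes under 1000 UMIs to 129 CPM in those of 20000 or more.

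**Figure D4:**
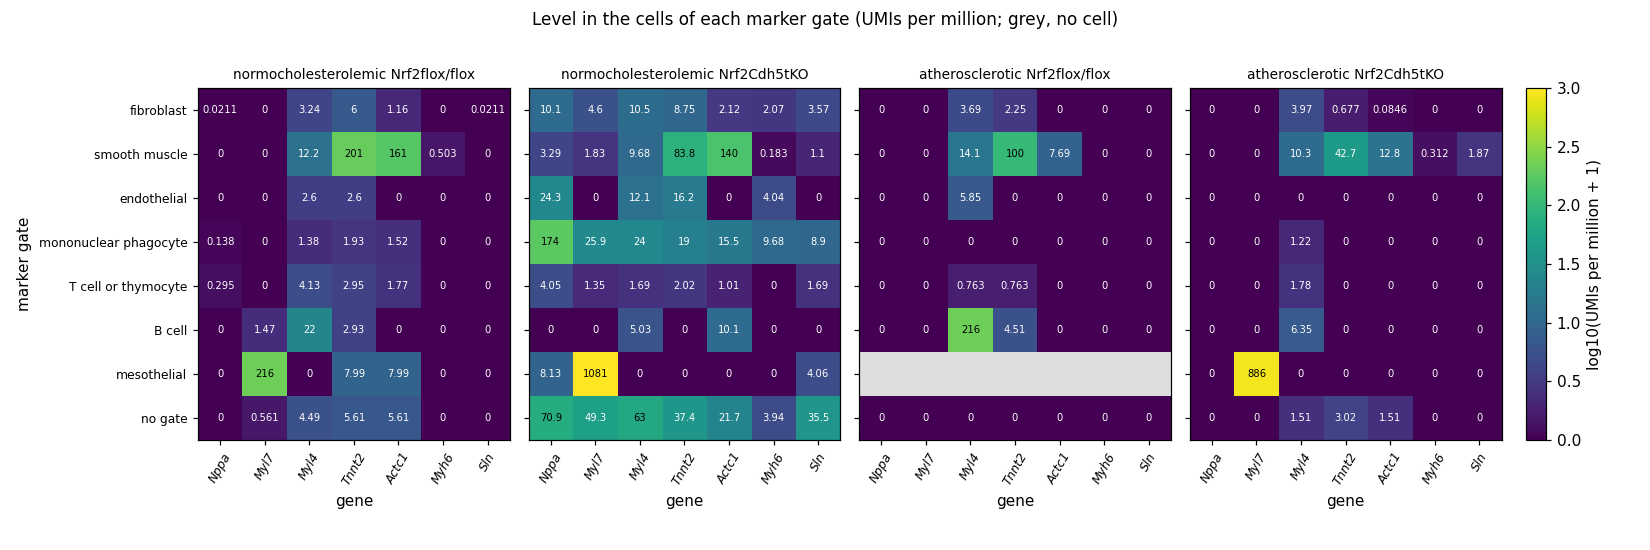
Level of each of the 7 genes (CPM in kept cells) by marker-gated cell type (rows) and library (panels); colour is log10(CPM + 1) and grey marks a type with no cell. In the tKO-labelled control Nppa is seen in every type drawn except B cells, Myl7 stands out in mesothelial cells, and Tnnt2 and Actc1 stand out in smooth muscle cells.

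Myl7 had a second place in the aorta. In cells that met the mesothelial gate, the flat lining of the outer serous membranes, it was at 216 CPM (142 to 314) in the flox control, 1081 CPM (955 to 1219) in the tKO-labelled control and 886 CPM in the tKO-labelled atherosclerotic library, from 27, 266 and 26 UMIs. These came from 11, 14 and 2 cells, and the flox atherosclerotic library had none. A UMI of Myl7 was seen in 5 of 11 cells (45.5%), 9 of 14 (64.3%) and both of the 2 cells, and the richest single cell held 10, 82 and 16 UMIs. In the flox control 27 of the 30 Myl7 UMIs of kept cells lay in the mesothelial gate. The level in every library with such cells was over that of any other gated type there, apart from the cardiac muscle gate. Few cells stand behind these values.

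Tnnt2 and Actc1 were counted mainly in smooth muscle cells, apart from the cardiac muscle gate of the tKO-labelled control. Of the kept UMIs of the flox control, 76.6% of Tnnt2 and 84.2% of Actc1 lay in the 1304 cells of the smooth muscle gate, which were 16.5% of its cells. The level of Tnnt2 in smooth muscle was 201 CPM (195 to 208) in the flox control, 83.8 (76.3 to 91.8) in the tKO-labelled control, 100.012 (79.1 to 125) in the flox atherosclerotic and 42.7 (35.8 to 50.5) in the tKO-labelled atherosclerotic library. Actc1 was at 161 (155 to 166), 140 (131 to 151), 7.69 (2.82 to 16.7) and 12.8 CPM (9.17 to 17.3). Both genes were lower in the atherosclerotic than in the normocholesterolemic library of the same genotype label.

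The transcripts sat in a minority of smooth muscle cells. Tnnt2 was seen in 330 of 1304 (25.3%), 55 of 361 (15.2%), 5 of 69 (7.25%) and 12 of 285 cells (4.21%), and Actc1 in 173 (13.3%), 58 (16.1%), 3 (4.35%) and 7 (2.46%). At least 5 UMIs of Tnnt2 were held by 180, 20, 1 and 4 cells, and at least 5 of Actc1 by 97, 28, 0 and 2. Single cells reached 145 UMIs of Tnnt2 in the flox control and 197 of Actc1 in the tKO-labelled control. In the flox atherosclerotic library 1 cell held 73 of the 78 Tnnt2 UMIs, and without it the level was 6.55 CPM (2.13 to 15.3); without the richest cell of the tKO-labelled atherosclerotic library Tnnt2 was at 25.7 and Actc1 at 4.70 CPM.

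High cells of the 2 genes overlapped in part. Of cells with Tnnt2 in the flox control 27.9% also had Actc1, against 8.32% of cells without Tnnt2, and 29.1% against 13.7% in the tKO-labelled control. At least 5 UMIs of both were held by 50 cells of the flox and 4 of the tKO-labelled control, and of either by 227 (17.4%) and 44 (12.2%). These high cells were somewhat deeper than the other smooth muscle cells, with medians of 17637 against 15332 UMIs and 18785.5 against 15060.

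Few of them held Nppa, Myl7, Myh6 or Sln. Of the 227 and 44 high cells 4 and 3 held any UMI of these 4 genes, and 19 and 1 held 3 or more of the 10 cardiac markers. Among those markers, Myom1 was itself at 175 and 232 CPM in smooth muscle cells of the flox and the tKO-labelled control. All smooth muscle cells of the flox control held 10 UMIs of Myh6 and none of Nppa, Myl7 or Sln. Those of the tKO-labelled control held 18 of Nppa, 10 of Myl7, 6 of Sln and 1 of Myh6. The share among the other smooth muscle cells is not given, so high cells are not shown to be poorer in these genes. The same doublet caller marked 3 of the 227 and none of the 44, against 15 of all 1304 and 3 of all 361 smooth muscle cells. Thinned to 5000 UMIs per cell, Tnnt2 was seen in 18.9% and 8.87% of smooth muscle cells of the 2 control libraries, and Actc1 in 10.1% and 12.2%. The share of Tnnt2 was thus lower in the tKO-labelled control at equal depth too, while that of Actc1 was not.

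**Figure D5:**
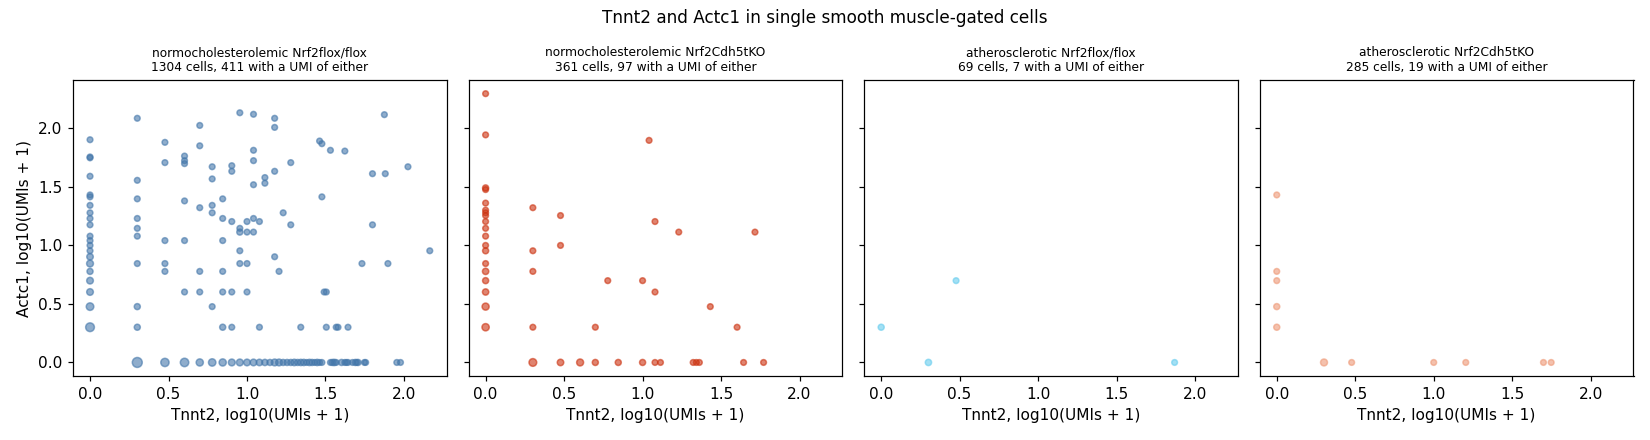
UMIs of Actc1 against UMIs of Tnnt2, both as log10(UMIs + 1), in each smooth muscle cell with a UMI of either, one panel per library; a larger point stands for more cells at the same values. The flox control has 180 cells with at least 5 UMIs of Tnnt2 and 97 with at least 5 of Actc1, and 50 of these have both.

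Myl4 varied little between libraries within smooth muscle, although over all kept cells it did not. In smooth muscle it was at 12.2, 9.68, 14.1 and 10.3 CPM in the 4 libraries, and a UMI was seen in 15.3%, 12.5%, 10.1% and 10.2% of the cells. These levels differed less between libraries than those of Tnnt2 or Actc1. In B cells of the flox atherosclerotic library Myl4 reached 216 CPM, but 43 of its 48 UMIs came from 1 cell and without it the level was 25.9 CPM; in B cells of the flox control it was at 22.0 CPM from 15 UMIs in 5 cells. Myl4 is known from embryonic muscle and from blood precursors as well as from the atrium.

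Between libraries, a gene was counted as higher or lower where its level differed by over 2-fold and it had at least 20 UMIs in the pair. The genes had been chosen on these contrasts, so the counts are only described. Between the tKO-labelled and the flox control, 5 of the 7 genes were higher (4.65% of all genes were) and none was lower (4.2% of all genes were). The median log2 ratio of the 7 was 6.18, against 0.11 over all genes compared. The log2 ratio was 12.13 for Nppa (10.58 to 14.41), 11.21 for Sln, 6.92 for Myl7, 6.18 for Myh6 and 3.10 for Myl4, against −0.55 for Tnnt2 and −0.05 for Actc1 (−0.14 to 0.03). For the sum of the 7 it was 1.73 (1.69 to 1.77). Without the cardiac muscle gate the sum was at −0.12 (−0.18 to −0.07), Tnnt2 at −1.44 and Actc1 at −0.81, and Nppa was at 9.30, Sln at 8.47, Myl7 at 5.37, Myh6 at 4.11 and Myl4 at 1.02. Over all kept cells a direction for the sum of the genes thus rested on 10 cells. Within single cell types it differed, with the sum higher in fibroblasts and lower in smooth muscle of the tKO-labelled control.

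Between the atherosclerotic and normocholesterolemic flox libraries 4 genes had enough UMIs. Tnnt2 (log2 ratio −2.71, −3.01 to −2.42) and Actc1 (−6.29, −7.73 to −5.16) were lower, as were 6.19% of all genes, while Myl4 was at 0.45. A single cell weighed on each of these values: without the richest cell of each library for the gene, Tnnt2 was at −4.59 and Actc1 at −7.82, from 26 and 2 UMIs in the atherosclerotic library, and Myl4 turned to −0.53, since 1 B cell held 43 of its 86 UMIs there. For Myl7 the flox atherosclerotic level was at least 1.23-fold lower, against the level of 3 UMIs. The same comparison between the libraries labelled Nrf2Cdh5tKO found all 7 genes lower, as were 5.76% of all genes. Nppa was at least 1058-fold lower, and the log2 ratio was −7.55 for Myh6, −6.54 for Sln, −4.98 for Myl7, −4.20 for Actc1, −3.40 for Myl4 and −2.31 for Tnnt2. The median of the 7 was −4.98, against −0.08 over all genes compared. Without the cardiac muscle gate Nppa was at least 148-fold lower, and the ratios were −5.48 for Myh6, −3.81 for Sln, −3.44 for both Myl7 and Actc1, −1.43 for Tnnt2 and −1.32 for Myl4. Both diet comparisons use the control library of their own genotype label. The second is read against the library that held the 15 barcodes of the cardiac muscle gate.

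Between the 2 atherosclerotic libraries Myl7 and Actc1 were higher in the tKO-labelled one, as were 2.2% of all genes. Myl7 was at least 4.71-fold higher and Actc1 had a log2 ratio of 2.04 (0.81 to 3.55), while Tnnt2 was at −0.16 and Myl4 at −0.75. The last pair turned to 1.20 and 0.22 without the richest cell of each library for the gene. The sum of the 7 genes was at −0.07 (−0.33 to 0.19). Of the 27 UMIs of Myl7, 26 came from 2 mesothelial cells, a type of which the flox library had none.

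Within the smooth muscle gate 3 genes could be compared, Myl4, Tnnt2 and Actc1. With the atherosclerotic diet Tnnt2 had a log2 ratio of −1.01 and Actc1 of −4.38 in the flox pair, where 4.62% of all genes were lower, and of −0.97 and −3.46 in the tKO-labelled pair, where Actc1 alone passed the 2-fold limit and 2.77% of all genes were lower. Tnnt2 was lower in the tKO-labelled than in the flox control by a log2 ratio of −1.26 (−1.41 to −1.12), with 3.12% of all genes lower, and Actc1 was at −0.19. In the atherosclerotic pair Tnnt2 was at −1.23, where 2.97% of all genes were lower, but without the richest cell of each library it was at 1.98. That last direction rested on the 1 cell with 73 UMIs. Without the richest cells the diet ratio of Tnnt2 was −4.89 in the flox and −1.51 in the tKO-labelled pair, so that it too passed 2-fold in the latter, and that of Actc1 was −5.85 and −4.48.

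Over 28 profiles, each the sum of at least 20 cells of 1 type in 1 library, the 7 genes fell into groups. Mesothelial cells and the kept cells of the cardiac muscle gate were too few in every library to form a profile. The correlations therefore describe counts in other types. Profiles share a library, its depth and its free RNA, so the correlations below are descriptions. Nppa went with Myh6 (Pearson r 0.94) and Myl7 (0.84), Myl7 with Sln (0.90) and Tnnt2 with Actc1 (0.78), but Nppa with Tnnt2 at 0.36 and with Actc1 at 0.26. The genes nearest to the mean of the 7 were Mb (0.75), Csrp3 (0.71), Tnni3 (0.68), AA986860 and 6330403L08Rik (both 0.67).

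Nearest to Nppa were Mb (0.95), Csrp3 (0.83) and Nppb (0.78), the last being the other natriuretic peptide of the heart. Mb was also first for Myh6 (0.98), and Csrp3, a sarcomere stretch sensor, was first for Myl7 (0.92) and Sln (0.84). Muc16, a mucin of mesothelium, was next but one for Myl7 (0.81), although no profile of mesothelial cells was included. Tnnt2 had Pygm, the muscle glycogen phosphorylase (0.89), Aoc3 (0.89) and Dsp (0.88) nearest, and Actc1 had Ankrd45 (0.88), Syngr3 (0.87) and AC154509.1 (0.86). For Myl4 the highest was Mettl15 (0.72). The thin-filament pair thus had other nearest genes than Nppa, Myl7, Sln and Myh6. Myl4 did not go with the other mainly atrial transcripts, at 0.33 with Nppa, 0.35 with Myl7 and 0.31 with Sln, against 0.56 with Tnnt2.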

How the data were processed

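Aortas of 4 groups of mice, 1 pooled library each, were profiled with a 3′ single-cell kit. The submitters' processing notes name Cell Ranger 6.1.2 and the mm10 genome; the values are raw UMI counts per gene and barcode that the authors deposited as filtered matrices, not normalised. The 7 genes and all marker lists were chosen with earlier results of these data known.

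Barcodes outside 200 to 6000 genes or over 15% mitochondrial UMIs were dropped, and the doublets marked by Scrublet (in scanpy 1.11.5) were left in. Barcodes were assigned by 11 marker gates (3 of 5 markers; at least 2 UMIs each for fibroblast and smooth muscle), after a cardiac muscle gate (5 of 10 markers) that was read first and over all barcodes. Levels are UMIs per 1000000 with exact Poisson intervals, shares have Clopper-Pearson intervals and ratios of counts have exact binomial intervals (scipy 1.17.1), all at 95% and for counting error only; a count of 0 is bounded at 3 UMIs per library. A gene was called where 2 libraries differed by over 2-fold and at least 20 UMIs were counted. No p-values were computed, since each group holds 1 library. Named genes were the 7 members, the 5 highest list genes in the cardiac gate, and the 5 and 3 genes most like the mean and each member by Pearson correlation of log2(CPM + 1) among genes with at least 100 UMIs. Computations were tested on simulated data with Python 3.11.15; edgeR 4.0.16 gave the TMM factors of one alternative. Promoter windows came from RefSeq (GRCm38.p6), which matched 6 of the 7 genes. Other alternatives were thinning, no cell filter, doublets removed, mean over cells, and leaving out the gate or the richest cells.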

Additional observations from a re-analysis of the deposited data

Results flagged for a closer look

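Myl4 had ratios of opposite sign in comparisons that share a design. Its log2 ratio of tKO-labelled over flox was 3.10 in the normocholesterolemic and −0.75 in the atherosclerotic pair, and that of atherosclerotic over normocholesterolemic was 0.45 in the flox and −3.40 in the tKO-labelled pair. With 1 library per group these differences were not tested. Of the Myl4 UMIs of the tKO-labelled control, 69.2% lay in the 15 barcodes of the cardiac muscle gate. In the flox atherosclerotic library 1 B cell held 43 of the 86 Myl4 UMIs. Without the richest cell of each library the 4 ratios were 2.50, 0.22, −0.53 and −2.81, so that neither pair was opposed in sign.

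Barcodes that the cell filters removed from the tKO-labelled control held these transcripts at high levels: 312 CPM for Nppa, 125 for Myl4, 113 for Myl7, 93.9 for Tnnt2, 77.9 for Sln, 55.1 for Actc1 and 23.8 for Myh6, and 801 for the sum of the 7, from 488 barcodes. The 5 barcodes of the cardiac muscle gate that were over the mitochondrial limit are among them. The UMIs were unevenly spread, and the richest removed barcodes outside the gate held 255, 206 and 169 UMIs of the 7 genes. The sum was 70.2 CPM in the barcodes removed from the flox control, 0 in those from the flox atherosclerotic and 8.90 in those from the tKO-labelled atherosclerotic library.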

How the results depend on the processing

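The summed level of the 7 genes in the tKO-labelled control (334 CPM) was 364 with no cell filter, 342 without called doublets, 343 as a mean over cells, 92.4 without the cardiac muscle gate and 87.5 without the richest 10 barcodes; its share in the richest 10 barcodes (66.3%) was 75.9% in kept cells. In the flox control the sum (100.467 CPM) was 98.1 without doublets, 86.0 without the richest 10 and 79.4 as a mean over cells; in the flox atherosclerotic library (16.2) it was 3.36 and 12.4, and in the tKO-labelled one (15.5) 6.40 and 11.9, under the last 2 of these settings. The log2 ratio of the sum between the tKO-labelled and flox controls (1.73) was 1.87 with no cell filter, 1.80 without doublets, 1.63 with TMM factors, 2.11 as a mean over cells and 2.00 within fibroblasts, and turned to −0.12 without the cardiac muscle gate and to −0.64 within smooth muscle. The diet ratio in the flox pair (−2.63) was −0.81 within fibroblasts and −1.62 within smooth muscle; in the tKO-labelled pair (−4.43) it was −4.60 with no filter, −2.58 without the gate, −3.14 within fibroblasts, −1.82 within smooth muscle and −4.85 as a mean over cells. The ratio in the atherosclerotic pair (−0.07) was −0.84 within smooth muscle. Tnnt2 in smooth muscle of that pair (−1.23) turned to 1.98 without the richest cell, an alternative chosen after seeing the data, as was thinning to 5000 UMIs. Without the richest cell the ratios of single genes in kept cells moved by more than their interval in 11 of 16 cases, and turned for Myl4 in the flox diet pair (−0.53) and for Myl4 and Tnnt2 in the atherosclerotic pair (0.22 and 1.20). Levels by cell type, each recomputed under several settings, stayed within their counting interval in 197 recomputations and left it in 34. Shares of cells stayed in 23 and left it in 76. The settings for shares were at least 2 UMIs and thinning to 1000 or 5000 UMIs, which by design tend to lower a share. Causes were not tested. No paired analysis was possible because each group holds 1 library. In the atherosclerotic libraries, of 1020 and 2266 cells, a count of 0 allows a level of up to 0.255 and 0.133 CPM.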

Other observations

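Smooth muscle cells of the flox control that held at least 5 UMIs of Tnnt2 (180 cells) were set beside the 893 smooth muscle cells without Tnnt2 or Actc1. The genes named here were chosen after their values were seen, so they are given as values with no test. Corin, the protease that activates the natriuretic peptide, was at 172 against 5.26 CPM and had a UMI in 67.2% against 4.37% of cells, and Lmod2, a leiomodin of striated muscle thin filaments, was at 32.2 against 0.457 CPM. Des (desmin, 592 against 71.8 CPM), Tcf21 (28.1 against 2.21), Gata4 (12.4 against 1.52) and Tnni3 (9.27 against 1.52) were also higher, the middle pair being transcription factors of the developing heart and its covering. Epha3, an ephrin receptor, was lower, at 1.85 against 29.7 CPM. Myh11, the smooth muscle myosin, was at 3089 against 3143 CPM, a log2 ratio of −0.02.

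The same cells of the tKO-labelled control, 20 against 264, gave 18.3 against 1.58 CPM for Corin, 107 against 18.2 for Des, 15.7 against 1.06 for Gata4 and 3917 against 4074 for Myh11, from few cells. Lmod2 had no UMI in the 20 cells.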
